A study of Mus musculus with 6 samples.

Results

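Phase II conjugation enzymes attach glutathione, glucuronic acid or sulfate to drugs, hormones, bile acids and reactive metabolites, which makes these molecules easier to excrete. Glutathione S-transferases (Gst genes) carry out the first reaction, UDP-glucuronosyltransferases (Ugt genes) the second and cytosolic sulfotransferases (Sult genes) the third. Hepatocytes are a main site of these reactions in the body, and several are known to differ between male and female mouse livers and between the zones of the liver lobule.

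The enzymes described here are the protein-coding genes named Gst, Ugt1, Ugt2, Ugt3 or Sult followed by a class letter and a number, with at least 10 counts summed over the 6 library columns. Of 61 genes with such names, 45 met the count minimum, out of 46983 rows in the table: 21 Gst, 15 Ugt and 9 Sult genes in 19 families. The remaining 16 genes were nearly silent. RNA came from whole livers of untreated, chow-fed C57BL/6 mice aged 12 weeks. The AEG-1DHEP group had lost AEG-1, the product of Mtdh, in hepatocytes. The AEG-1fl/fl control group carried the conditional allele undeleted and is titled WT in the sample names. The Cre transgene and its promoter are not named by the labels. The labels describe 3 mice per group, but the columns of control replicates 1 and 2 held the same value in 46983 of 46983 rows. Their difference is below sampling noise, so the pair was counted as 1 sample, which leaves 2 distinct control livers beside 3 knockout livers.

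Totals ran from 29557477 to 33685670 counts in knockout libraries and 30819997 to 30965664 in control libraries. Levels are given as CPM (counts scaled to a common library size, with that size corrected by the trimmed mean of M values), and per kilobase of exon where genes are compared with each other. Mtdh itself had 2.90, 2.23 and 2.37 CPM in knockout livers, against 48.0 and 54.6 CPM in control livers, so each library went with its label. Ddx3y, a Y-linked gene, had 76.6 to 101 CPM in knockout libraries and 85.3 to 87.0 CPM in control libraries. On this scale, 3 counts correspond to 0.0905 to 0.0976 CPM in knockout libraries and 0.0941 to 0.102 CPM in control libraries, which covers counting error only.

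Loss of AEG-1 from hepatocytes left no conjugation enzyme past the threshold. Of the 45 enzymes, 42 had enough counts to be tested and 0 passed edgeR's quasi-likelihood test at an adjusted p under 0.05, a test that called 0.00608% of all 16441 genes. DESeq2, which called 0.116% of all genes, and limma-voom, which called 0.00608%, also called 0 enzymes. At an unadjusted p under 0.05, 3 of the 42 (7.14%) were reached by edgeR, against 3.43% of all genes tested. Gstt1 and Sult1c2 were the 2 higher ones, where 1.63% of all genes lay, and Gsta2 the 1 lower one, where 1.8% lay. By DESeq2 5 enzymes were reached, with 3.03% of all genes, and by limma-voom 2, with 3.29%. Leaving out knockout replicate 3 made the higher ones 5, with 2.73% of all genes. Leaving out knockout replicate 1 or knockout replicate 2 made them 1, with 0.887% and 2.19% of all genes. Leaving out knockout replicate 2 made the lower ones 0, with 2.34% of all genes. Every adjusted p of the 42 enzymes was 1.00 by edgeR.

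The median log2 fold change of the 42 enzymes was 0.08, against 0.01 over all genes tested, and 28 of the 42 (66.7%) lay above 0, where 52.1% of all genes did. Their 95% interval lay within a 2-fold difference in either direction for 29 of 42 enzymes (69.0%) and for 74.8% of all genes. The median half-width of the interval was 0.53 for the enzymes and 0.46 for all genes on the log2 scale. The 13 enzymes whose interval reached past 2-fold were Gsta1, Gsta2, Gstp1, Gstp2, Gstp3, Ugt1a5, Ugt1a10, Ugt2b37, Ugt2b38, Sult1c2, Sult1e1, Sult2a7 and Sult5a1. Their libraries do not settle whether a difference of that size was present.

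**Figure D1:**
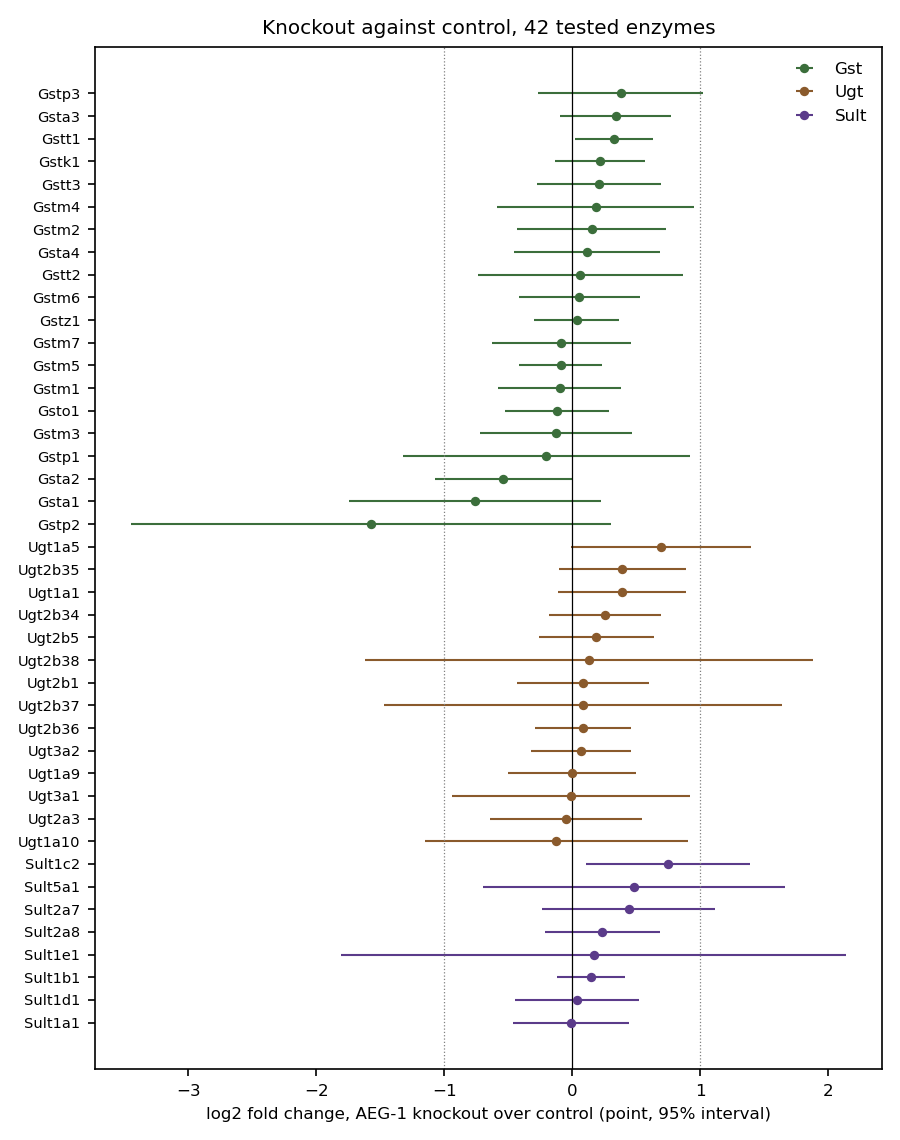
Log2 fold change (knockout over control) of the 42 tested enzymes, with its 95% interval from the edgeR fit, on the horizontal axis, and one enzyme per line grouped into Gst, Ugt and Sult genes. Dotted lines mark a 2-fold difference in either direction. For 29 enzymes the whole interval lies between them, and Sult1e1, Gstp2 and Ugt2b38 have the widest ones.

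The 3 superfamilies contributed unequal shares of the conjugation transcripts. Ugt genes held 43.8%, Gst genes 42.3% and Sult genes 14.0% of the summed CPM of the 45 enzymes over the 5 libraries. The summed level was 10935, 9665 and 11567 CPM in knockout livers, and 9349 and 10164 CPM in control livers. The mean was 10722 ± 969 CPM in knockout livers (SD, n = 3) and 9756 ± 576 CPM in control livers (SD, n = 2). Knockout replicate 2 lay between the controls, so the groups overlapped. As a share of raw library totals, without the size correction, the sum was 1.14%, 0.991% and 1.10% in knockout libraries and 0.967% and 0.969% in control libraries. On that scale the groups did not overlap. The order of knockout and control libraries in the summed level thus depended on the scaling. The mean of the summed level over the knockout libraries was 1.10 times that over the control libraries, with 1.08 for Gst, 1.11 for Ugt and 1.13 for Sult genes. In whole liver, fewer cells of a type and less RNA per cell cannot be told apart.

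Within each superfamily a few genes accounted for most of the signal. Per kilobase, Gstp1 (624 CPM per kilobase), Gstz1 (500.2), Gstm1 (414) and Gsta3 (358) led the Gst genes as means of the 5 libraries. The leading Ugt genes were Ugt2b5 (629.9 CPM per kilobase), Ugt2b36 (378), Ugt2b1 (307) and Ugt2a3 (163). Sult2a8 (417 CPM per kilobase) stood above Sult1a1 (161), Sult1d1 (53.4) and Sult1b1 (15.2) among the sulfotransferases. At the other end, Gsto2, Sult6b1 and Ugt1a2 had 12, 17 and 44 counts over the 6 columns and were not tested.

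**Figure D2:**
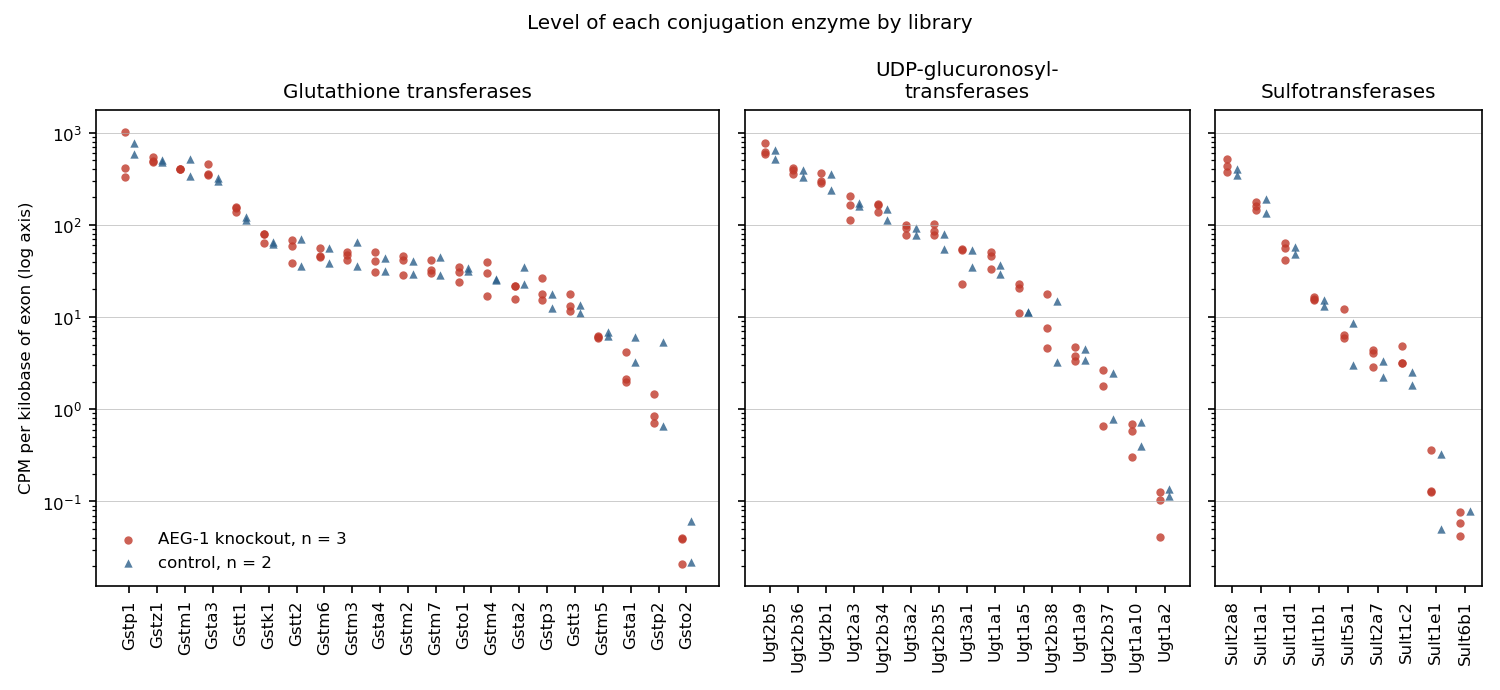
Level of each of the 45 enzymes in CPM per kilobase of exon (vertical axis, logarithmic), with genes ordered by their mean within each superfamily. Circles are the 3 knockout libraries and triangles the 2 control libraries, and a library at 0 (Sult6b1 in control replicate 1) is not drawn. Gstp1, Ugt2b5 and Sult2a8 lead their superfamilies, and circles and triangles overlap for most genes.

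Pi-class Gst genes varied widely from liver to liver. Gstp1, which conjugates small electrophiles and is known as a male-predominant transferase of mouse liver, had 314, 251 and 771 CPM in knockout livers, against 441 and 583 CPM in control livers. Knockout replicate 3 was the highest library and knockout replicates 1 and 2 the lowest, so the groups overlapped. The log2 fold change was -0.20 (SE 0.47, unadjusted p = 0.681 by edgeR). It was -0.86 without knockout replicate 3, and positive without knockout replicate 2 (0.08) and without control replicate 3 (0.02). Gstp2, its weakly expressed neighbour on chromosome 19, had 0.651, 0.543 and 1.12 CPM in knockout livers and 0.502 and 4.13 CPM in control livers. Control replicate 3 was 8.23 times control replicate 1 in Gstp2, and the log2 fold change of -1.57 (SE 0.78, unadjusted p = 0.0876 by edgeR) was 0.62 without control replicate 3. Gstp3 had 12.6, 18.7 and 10.9 CPM in knockout livers, against 12.7 and 8.94 CPM in control livers, and was highest in knockout replicate 2, unlike Gstp1.

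Counts of Gstp1 and Gstp2 are not fully separable. Of the 50-base stretches in Gstp2 transcripts, 49.1% also occur in Gstp1 transcripts, and 33.7% of those of Gstp1 occur in Gstp2. The 300 bases around their starts (250 before, 50 after, RefSeq on GRCm38.p6, minus strand) are 85.5% identical over 282 aligned bases. They are shown because so similar a pair had so different a level. Gstp1 lies at chr19:4037863-4038162 and Gstp2 at chr19:4042172-4042471. Capitals mark GCGTG, the core letters of the xenobiotic response element on either strand, present in 32.4% of 32851 mouse promoters of this length and in 10 of 51 windows of the enzymes (19.6%).
Gstp1: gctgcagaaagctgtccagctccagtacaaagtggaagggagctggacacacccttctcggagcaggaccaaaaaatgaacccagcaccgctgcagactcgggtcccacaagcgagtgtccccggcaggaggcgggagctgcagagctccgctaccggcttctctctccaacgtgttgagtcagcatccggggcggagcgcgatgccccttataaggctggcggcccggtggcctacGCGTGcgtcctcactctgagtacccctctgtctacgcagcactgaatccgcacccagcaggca
Gstp2: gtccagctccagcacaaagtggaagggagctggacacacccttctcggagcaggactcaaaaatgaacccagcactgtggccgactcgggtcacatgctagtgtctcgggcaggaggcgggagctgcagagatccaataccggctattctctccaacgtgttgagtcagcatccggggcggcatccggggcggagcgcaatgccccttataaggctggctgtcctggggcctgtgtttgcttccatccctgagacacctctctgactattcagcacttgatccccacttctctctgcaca
The match in Gstp1 begins 13 bases before the start, and the Gstp2 window holds none. In the levels above, Gstp1 had at least 251 CPM in every library and Gstp2 at most 4.13 CPM. The part of the match in these levels was not tested.

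Alpha-class transferases, which conjugate lipid peroxidation products and aflatoxin epoxide among other substrates, had log2 fold changes on both sides of 0. Gsta3, the most abundant of them, had 2004, 1527 and 1558 CPM in knockout livers, against 1384 and 1298 CPM in control livers. All knockout libraries lay above both controls, with a log2 fold change of 0.34 (SE 0.18, unadjusted p = 0.105 by edgeR), which was 0.20 without knockout replicate 1. Gsta2 had 25.5, 18.5 and 25.8 CPM in knockout livers and 40.9 and 26.7 CPM in control livers. Here all knockout libraries lay below both controls, but knockout replicates 1 and 3 were close to control replicate 3. Its log2 fold change was -0.54 (SE 0.22, unadjusted p = 0.0489 by edgeR), and -0.20 when control replicate 1 was left out. Gsta1 had 3.97, 1.87 and 2.03 CPM in knockout livers, against 5.77 and 3.08 CPM in control livers, and the groups overlapped. The log2 fold change of Gsta1 was -0.76 (SE 0.41, unadjusted p = 0.110 by edgeR), and -0.24 without control replicate 1. Gsta1 and Gsta2 share sequence, and reads from it could be counted for either gene: 36.0% of the 50-base stretches of Gsta2 occur in Gsta1 and 90.5% of those of Gsta1 occur in some other gene. Gsta4, which detoxifies 4-hydroxynonenal, had 29.3 to 48.8 CPM in knockout livers and 30.2 to 41.9 CPM in control livers.

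Mu-class genes lie side by side on chromosome 3 and conjugate many aromatic electrophiles. Gstm1, the most abundant, had 591, 593 and 593 CPM in knockout livers, against 768 and 501 CPM in control livers. The knockout libraries were nearly equal and lay between the controls, with a log2 fold change of -0.10 (SE 0.20). Its direction turned to 0.24 without control replicate 1. Control replicate 1 exceeded control replicate 3 in 6 of the 7 tested Gstm genes, all but Gstm5. The 7 log2 fold changes ran from -0.12 to 0.18 with a median of -0.09. Gstm4 had its highest value of 67.6 CPM in knockout replicate 2 and its lowest of 28.9 CPM in knockout replicate 3, with both controls between them.

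Of the theta-class genes, Gstt1, which acts on small halogenated compounds, had 231, 236 and 209 CPM in knockout livers, against 174 and 186 CPM in control livers. The groups did not overlap, and the log2 fold change was 0.32 (SE 0.13, 95% interval 0.02 to 0.63, unadjusted p = 0.0403 by edgeR). It ran from 0.27 to 0.37 when any 1 library was left out. Its neighbours Gstt2 (52.9 to 93.2 CPM in knockout and 49.4 to 95.7 CPM in control livers) and Gstt3 (30.9 to 47.2 CPM in knockout and 29.3 to 35.9 CPM in control livers) overlapped between the groups. Gstz1, which is also the maleylacetoacetate isomerase of tyrosine breakdown, varied little. It had 898, 798 and 827 CPM in knockout livers and 798 and 843 CPM in control livers, with a 95% interval of the log2 fold change from -0.30 to 0.37. The kappa-class Gstk1 (0.21, SE 0.15) and the omega-class Gsto1 (-0.12, SE 0.17) had log2 fold changes whose 95% intervals included 0.

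Ugt2b enzymes, which glucuronidate steroids, fatty acids and many drugs, are encoded in one cluster on chromosome 5. All 7 tested Ugt2b genes had log2 fold changes above 0, from 0.08 to 0.39 with a median of 0.13, and none reached an unadjusted p under 0.05 by edgeR. Ugt2b5 had 1157, 1099 and 1434 CPM in knockout livers, against 964 and 1197 CPM in control livers. Its log2 fold change was 0.19 (SE 0.19). Ugt2b35 had 288, 261 and 343 CPM in knockout livers and 186 and 268 CPM in control livers, with a log2 fold change of 0.39 (SE 0.21, unadjusted p = 0.102 by edgeR). Control replicate 1 was the lowest of the 5 libraries in each of them but Ugt2b37, and knockout replicate 3 was the highest in all 7. The controls differed from each other by more than the groups did in 7 of 7, as they did in 66.4% of all genes tested. Without control replicate 1, the log2 fold change was 0.15 for Ugt2b35 and 0.03 for Ugt2b5, and negative for Ugt2b1 (-0.17) and Ugt2b36 (-0.04).

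The weakly expressed Ugt2b38 and Ugt2b37 varied most in that cluster, and Ugt2b37 is described after its values were seen. Ugt2b38 had 8.75, 14.4 and 33.5 CPM in knockout livers, against 6.12 and 28.4 CPM in control livers. Ugt2b37 had 1.24, 3.41 and 5.03 CPM in knockout livers, against 1.47 and 4.64 CPM in control livers. In both genes knockout replicate 3 and control replicate 3 were the highest libraries, and the log2 fold changes of 0.13 (SE 0.73) and 0.08 (SE 0.65) were smaller than their standard errors. For Ugt2b38 it turned to -0.60 when control replicate 1 was left out and to -0.58 when knockout replicate 3 was. The promoters of both genes are close copies of that of Ugt2b5, whose level was far higher and far steadier. Over the aligned bases, Ugt2b38 was 94.8% identical to Ugt2b37 and identical to Ugt2b5 in 261 of 290. The 3 windows (RefSeq, GRCm38.p6, minus strand) lie at chr5:87424154-87424453, chr5:87254739-87255038 and chr5:87140291-87140590. Capitals mark AGGTCA, the half-site bound by many nuclear receptors, searched on both strands.
Ugt2b38: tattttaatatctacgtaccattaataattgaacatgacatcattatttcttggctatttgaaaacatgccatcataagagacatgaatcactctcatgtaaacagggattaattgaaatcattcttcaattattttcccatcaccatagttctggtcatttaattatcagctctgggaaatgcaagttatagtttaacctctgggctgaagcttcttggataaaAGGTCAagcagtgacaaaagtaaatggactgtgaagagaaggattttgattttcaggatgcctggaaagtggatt
Ugt2b37: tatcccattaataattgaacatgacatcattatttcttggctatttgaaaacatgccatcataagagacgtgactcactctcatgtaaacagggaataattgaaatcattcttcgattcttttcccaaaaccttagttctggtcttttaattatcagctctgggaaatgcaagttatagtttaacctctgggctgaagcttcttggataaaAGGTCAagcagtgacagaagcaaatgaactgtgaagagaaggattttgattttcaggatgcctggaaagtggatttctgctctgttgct
Ugt2b5: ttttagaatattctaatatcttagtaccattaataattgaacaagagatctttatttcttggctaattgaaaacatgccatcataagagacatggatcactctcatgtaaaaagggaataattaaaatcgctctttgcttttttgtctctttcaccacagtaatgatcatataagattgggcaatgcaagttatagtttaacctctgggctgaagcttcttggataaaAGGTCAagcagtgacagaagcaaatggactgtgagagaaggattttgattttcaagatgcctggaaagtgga
The match begins 25 bases before the start in Ugt2b38, 39 in Ugt2b37 and 22 in Ugt2b5, and it also stands 25 bases before the start of Ugt2b36. These letters occur in 11 of 51 promoter windows of the enzymes (21.6%) and in 16.3% of all 32851 windows. Their part in the levels was not tested. Of the 50-base stretches in Ugt2b38 transcripts, 34.2% occur in Ugt2b5, so some reads of the abundant gene could be counted for the rare one.

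A like order of the libraries was seen in genes of the other superfamilies, picked after their values were seen. Sult5a1, a sulfotransferase without a well-known substrate, had 10.5, 11.2 and 21.4 CPM in knockout livers, against 5.30 and 15.3 CPM in control livers. Knockout replicate 3 and control replicate 3 were again the highest, as in Ugt2b37, Ugt2b38, Gstp1 and Gstp2. The same livers were highest in Ugt2b1, Ugt2b5, Ugt2b36, Ugt2a3 and Sult1d1. Knockout replicate 3 was instead the lowest library in Gstm2, Gstm4, Ugt1a5, Ugt1a9, Ugt1a10 and Ugt3a1. The share of all genes with these 2 livers highest was not taken. The summed level of 10 male-biased liver genes was 3443, 4178 and 5622 CPM in knockout libraries and 3347 and 5868 CPM in control libraries. Among them, Mup20 had 651, 836 and 1464 CPM in knockout livers and 708 and 1832 CPM in control livers. The list's sum, carried mainly by Cyp2d9 and Mup20, was highest in the same 2 livers. Of the 10 genes, 4 (Cyp2d9, Cyp7b1, Slco1a1 and Mup20) had these livers as their highest, while Elovl3 had 56.2, 262 and 14.4 CPM in knockout livers and 58.4 and 68.7 CPM in control livers. The part of these genes in the values above was not tested. Of the 10, 5 were higher and 5 lower in knockout livers, and none passed the test. The 12 female-biased genes summed to 991, 274 and 517 CPM in knockout libraries and 774 and 411 CPM in control libraries, with 5 of 9 tested genes higher. Cyp2a4 made up most of that sum, with 851, 170 and 429 CPM in knockout libraries and 698 and 295 CPM in control libraries. Cyp2b9 had another order, with 0.228, 2.89 and 2.37 CPM in knockout libraries and 0.251 and 5.08 CPM in control libraries. Cyp2b13 was also highest in control replicate 3. None of the 12 had 0 counts in all 5 libraries.

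**Figure D3:**
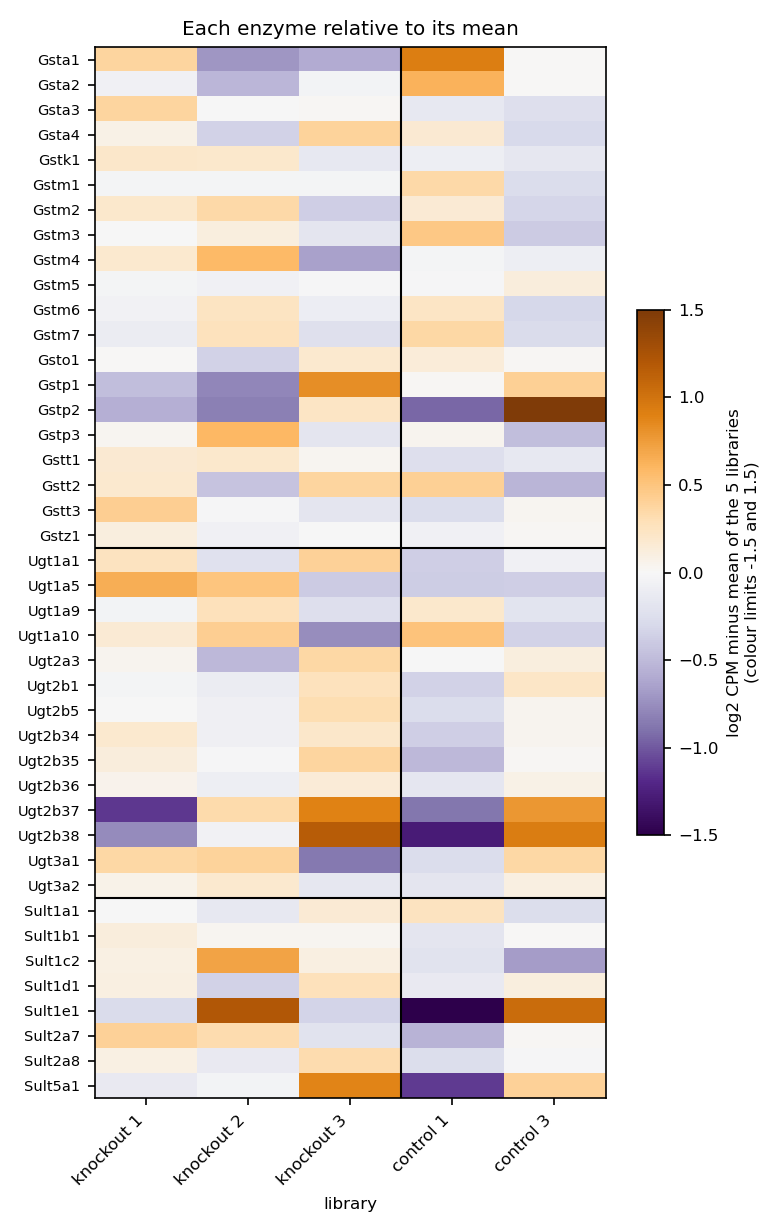
Level of the 42 tested enzymes in each library, as log2 CPM minus the gene's mean over the 5 libraries (colour), with knockout libraries left of the line and control libraries right of it. Gstp1, Gstp2, Ugt2b37, Ugt2b38 and Sult5a1 have their highest values in knockout replicate 3 and control replicate 3, while Gstm4, Ugt1a5 and Ugt3a1 are lowest in knockout replicate 3. Most Gstm genes are higher in control replicate 1 than in control replicate 3.

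Ugt1a transcripts come from alternative first exons joined to shared last exons. Only 17.3% of the exon bases of Ugt1a1 and 35.7% to 40.7% of those of the other Ugt1a enzymes lie in no other row of the table, so their levels per kilobase are not comparable with those of other genes. Ugt1a1, the bilirubin glucuronosyltransferase, had 102, 73.3 and 113 CPM in knockout livers, against 65.8 and 81.3 CPM in control livers. Knockout replicate 2 lay between the controls, and the log2 fold change was 0.39 (SE 0.21, unadjusted p = 0.110 by edgeR). It was 0.24 with control replicate 1 left out and 0.25 with knockout replicate 3 left out. Ugt1a5 had 50.7, 45.7 and 24.6 CPM in knockout livers and 24.8 and 25.1 CPM in control livers. Knockout replicates 1 and 2 were well above the rest, while knockout replicate 3 was level with both controls. The log2 fold change was 0.69 (SE 0.29, unadjusted p = 0.0528 by edgeR), and it was 0.95 without knockout replicate 3. For Ugt1a9 the value was -0.0025 (SE 0.21), and for Ugt1a10 -0.12 (SE 0.43). The naming rule leaves out 3 genes of the locus whose symbols end in a letter. Their log2 fold changes were -0.09 (SE 0.16) for Ugt1a6a, 0.15 (SE 0.14) for Ugt1a6b and -0.05 (SE 0.31) for Ugt1a7c.

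Ugt2a3 had 348, 239 and 434 CPM in knockout livers, against 338 and 366 CPM in control livers, and the log2 fold change was -0.05 (SE 0.25). Its direction turned without knockout replicate 2 (0.15) and without control replicate 3 (0.01). Ugt3a1, whose human counterpart uses N-acetylglucosamine as the sugar, had 143, 147 and 61.5 CPM in knockout livers and 93.2 and 143 CPM in control livers. Knockout replicate 3 was the lowest library, at 2.39-fold below the highest knockout library. The neighbouring Ugt3a2 had 284, 308 and 243 CPM in knockout livers and 241 and 290.1 CPM in control livers, where knockout replicate 3 was close to control replicate 1.

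Sulfotransferases attach sulfate to hormones, phenols and bile acids. Of 8 tested Sult genes, 7 had log2 fold changes above 0, and the median was 0.20. Leaving out control replicate 1 gave a median of 0.08, below the Gst median of 0.24 in the same setting, and leaving out control replicate 3 one of 0.45. Sult1c2 had 5.79, 8.93 and 5.84 CPM in knockout livers, against 4.74 and 3.42 CPM in control livers. Its groups did not overlap, and the log2 fold change of 0.75 (SE 0.27, 95% interval 0.10 to 1.39, unadjusted p = 0.0289 by edgeR) had the smallest p of all 42 enzymes. The fold change ran from 0.51 to 1.00 when any 1 library was left out. Sult2a8, the abundant bile salt sulfotransferase of mouse liver, had 1057, 906 and 1249 CPM in knockout livers, against 836 and 983 CPM in control livers. Those groups overlapped, with a log2 fold change of 0.24 (SE 0.19). Its chromosome 7 neighbour Sult2a7 had 3.90, 3.68 and 2.56 CPM in knockout livers and 2.01 and 2.98 CPM in control livers, and its log2 fold change was 0.44 (SE 0.28). With control replicate 1 left out, the log2 fold change was 0.18 for Sult2a7 and 0.12 for Sult2a8, and with control replicate 3 left out it was 0.75 for Sult2a7 and 0.36 for Sult2a8. Without knockout replicate 3 it was 0.11 for Sult2a8.

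Sult1a1, which sulfates phenols, had 239, 217 and 268 CPM in knockout livers, against 285 and 201 CPM in control livers. The controls enclosed every knockout library, and the log2 fold change was -0.01 (SE 0.19). It turned to 0.26 without control replicate 1. Sult1b1, which acts on thyroid hormones, had 45.9, 43.1 and 42.9 CPM in knockout livers and 37.1 and 42.5 CPM in control livers. The groups did not overlap, but by less than 1 CPM, and the log2 fold change was 0.14 (SE 0.11, unadjusted p = 0.237 by edgeR). Leaving out control replicate 1 made it 0.045, and leaving out control replicate 3 made it 0.25. Sult1d1, which sulfates catecholamines, had 102 to 157 CPM in knockout livers and 118 to 141 CPM in control livers. Sult1e1, the oestrogen sulfotransferase, was near the floor, with 5, 15 and 5 counts in knockout libraries and 2 and 12 in control libraries. Sult2a1 to Sult2a6 and Sult3a1, several of which are known as female-predominant in mouse liver, were below the count minimum, with at most 4 counts in any knockout library and at most 1 in any control library.

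The difference between the control livers was larger than that between the groups for most enzymes. For 33 of 42 enzymes (78.6%) the log2 difference between the 2 control libraries exceeded the absolute log2 fold change, as it did for 66.4% of all genes tested. A gap between 2 single libraries varies more than a difference of group means, so it is often the larger without any group effect. The median gap between the controls was 0.47 for the enzymes and 0.23 for all genes on the log2 scale. The groups did not overlap in 6 of 42 enzymes (14.3%), where 16.9% of all genes did not. Of these, Gsta3, Gstt1, Sult1b1 and Sult1c2 were higher, as were 8.15% of all genes, and Gsta2 and Gstm5 lower, as were 8.73%. Leaving out 1 library moved these counts. With fewer libraries, fewer genes overlap by construction. Enzymes above were 8 (19.0%, against 16.2% of all genes) without knockout replicate 2 and 10 (23.8%, against 16.2%) without knockout replicate 3. They were 12 (28.6%, against 24.2% of all genes) without control replicate 1 and 18 (42.9%, against 24.9%) without control replicate 3. Enzymes below were 4 (9.52%, against 15.3% of all genes) without knockout replicate 3 and 9 (21.4%, against 25.6%) without control replicate 3. With library totals in place of the size correction, 0 enzymes lay below.

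**Figure D4:**
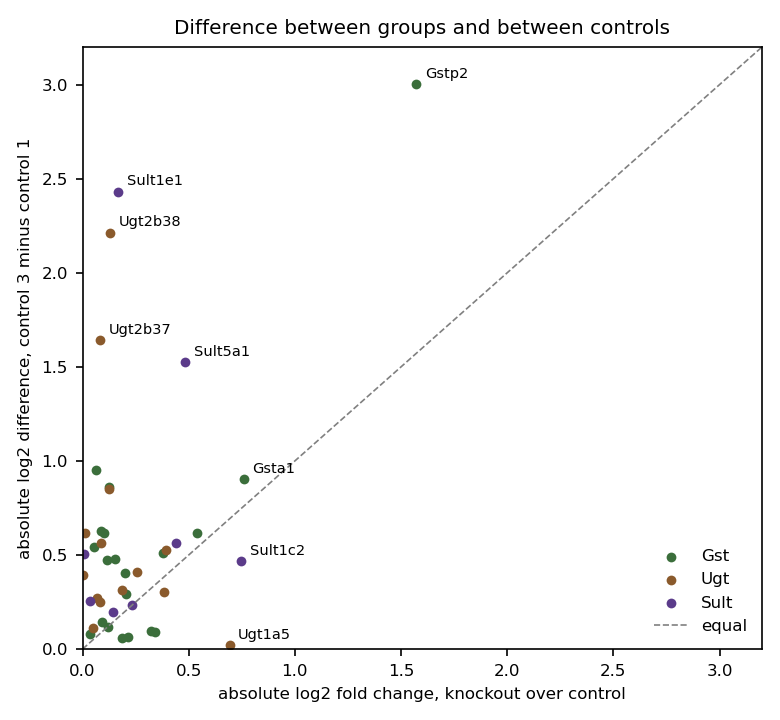
Absolute log2 difference between control replicate 3 and control replicate 1 (vertical axis) against the absolute log2 fold change of knockout over control (horizontal axis) for the 42 tested enzymes. Points above the dashed line, 33 of 42, differed more between the control libraries than between the groups, and Gstp2, Sult1e1, Ugt2b38, Ugt2b37 and Sult5a1 have the widest gaps. Single libraries vary more than group means, so many points would lie above the line without any group effect.

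The genes of supply, transport and regulation around conjugation were likewise without a call. In 9 lists of such genes, 0 genes passed by edgeR and 0 by DESeq2, and at most 1 per list reached an unadjusted p under 0.05. In glutathione synthesis and recycling, 7 of 14 tested genes lay above 0 (median -0.01). Cth, the cystathionine lyase that makes cysteine for glutathione, had 438, 279 and 384 CPM in knockout livers and 567 and 480.1 CPM in control livers, with a log2 fold change of -0.51 (SE 0.21, unadjusted p = 0.0496 by edgeR). Gpx4, a lipid peroxide reductase that uses glutathione, had a log2 fold change of 0.26 (SE 0.13). Membrane-bound and other glutathione transferases had 5 of 7 above 0 (median 0.13), with 0.22 (SE 0.18) for Mgst1, the abundant microsomal transferase, and -0.19 (SE 0.13) for Clic1. Mercapturate formation had 6 of 8 below 0 (median -0.13), with -0.36 (SE 0.19) for the aminoacylase Acy1 and -0.71 (SE 0.38) for the dipeptidase Dpep1.

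The joint list of UDP-glucuronate supply and glucuronide cleavage had 9 of 10 above 0 (median 0.16). Values were 0.30 (SE 0.15) for the glucuronidase Gusb and 0.26 (SE 0.15) for the UDP-xylose synthase Uxs1. Neither of these genes supplies UDP-glucuronate, nor do Akr1a1 (0.16), Gulo (0.17) and Rgn (0.22), so the count does not describe supply alone. Supply of the sulfate donor PAPS and sulfur handling had 4 of 11 above 0 (median -0.01), with 0.19 (SE 0.12) for Tst and -0.38 (SE 0.25) for Ethe1, both mitochondrial sulfur enzymes. This median and that of glutathione synthesis were above 0 with library totals as the scaling. Of 13 transporters, 8 lay above 0 (median 0.26). The list joins ABC pumps with Slco carriers, and every Slco carrier lay above 0. Of the pumps, Abcc2, Abcc3, Abcg2 and Abcb1a lay above 0, and Abcc1, Abcc4, Abcc5, Abcc6 and Abcb11 below. Abcb1a, a drug efflux pump, had 15.6, 13.8 and 13.9 CPM in knockout livers and 9.22 and 12.0 CPM in control livers. Its log2 fold change was 0.45 (SE 0.16, unadjusted p = 0.0257 by edgeR). For Slco2b1, an uptake carrier, it was 0.31 (SE 0.13). Methyl, acetyl and glycine conjugation had 14 of 17 above 0 (median 0.15). Within it, Nnmt, the nicotinamide methyltransferase, had 107, 63.7 and 90.7 CPM in knockout livers and 139 and 131 CPM in control livers (log2 fold change -0.63, SE 0.22, unadjusted p = 0.0243 by edgeR), and Hnmt, the histamine methyltransferase, had a log2 fold change of 0.34 (SE 0.14).

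Regulators of these enzymes had 13 of 17 above 0 (median 0.07). Nfe2l2, which encodes the antioxidant response factor NRF2, had 92.8, 95.9 and 86.9 CPM in knockout livers, against 69.3 and 82.8 CPM in control livers, and its log2 fold change was 0.27 (SE 0.13, unadjusted p = 0.0751 by edgeR). Bcl6, a transcriptional repressor, had 52.1, 17.0 and 21.9 CPM in knockout livers and 16.5 and 13.6 CPM in control livers, with a log2 fold change of 1.01 (SE 0.47). Reporter genes of the xenobiotic receptors, NRF2 and PPAR-alpha had 10 of 13 above 0 (median 0.12). That median was -0.077 when control replicate 1 was left out and 0.49 when control replicate 3 was. Hmox1, the haem oxygenase, had 13.1, 12.8 and 9.56 CPM in knockout livers and 17.0 and 16.1 CPM in control livers, and its log2 fold change of -0.48 (SE 0.17) had an unadjusted p of 0.0238 by edgeR. The log2 fold change of Tiparp, a target of the aryl hydrocarbon receptor, was 0.47 (SE 0.24). Promoter windows with the antioxidant response element core TGACNNNGC numbered 3 of 51 (5.88%) among the enzymes and 12.4% among all promoters. For GTTAAT, a half-site of the hepatocyte factor HNF1, the shares were 15.7% and 7.10%, and for TTCNNNGAA, the STAT5 site, 3.92% and 8.30%. Matches are on either strand, may overlap other motifs and describe letters only.

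The pericentral zone, where several Gst and Ugt enzymes are known to be enriched, had 9 of 10 markers above 0 (median 0.19), summing to 11717, 11067 and 11670.2 CPM in knockout libraries and 8917 and 9473 CPM in control libraries. Cyp2e1 made up most of that sum, with 7365, 7007 and 7900 CPM in knockout libraries and 5507 and 5991 CPM in control libraries. The periportal markers had 8 of 10 below 0 (median -0.27). They summed to 68813, 64813 and 78732 CPM in knockout libraries and 89561 and 61204 CPM in control libraries. Alb made up most of this sum and of that of the hepatocyte markers below. Alb had 60676, 59548 and 70330.5 CPM in knockout libraries and 80450 and 53695 CPM in control libraries. No marker of either zone had 0 counts throughout, and of both lists DESeq2 called 1 gene, periportal Hal. The part of the zones in the levels of the enzymes was not tested. Hepatocyte markers summed to 90269 to 102708 CPM in knockout libraries and 85435 to 119019 CPM in control libraries, with 7 of 9 below 0. Endothelial markers had 10 of 10 below 0 (257 to 351 CPM in knockout and 334 to 398 CPM in control libraries), Kupffer cell markers 9 of 10 (305 to 363 CPM in knockout and 316 to 409 CPM in control libraries), and stellate cell markers 10 of 10 (198 to 289 CPM in knockout and 272 to 289.6 CPM in control libraries). Cholangiocyte markers (5 of 7 below 0), lymphocyte markers (5 of 6) and erythroid markers (5 of 5) had summed levels of 62.1 to 73.6, 5.06 to 5.73 and 424 to 543 CPM in knockout libraries and 52.6 to 72.3, 4.54 to 7.84 and 503 to 673 CPM in control libraries. Spp1, with a log2 fold change of 0.28 (SE 0.25), made up most of the cholangiocyte sum. Sox9 was the lowest of that list at -0.82 (SE 0.32). Dcn, at -0.06 (SE 0.17), was the largest part of the stellate sum. The stellate genes ran from -0.94 (SE 0.23) for Acta2 to -0.01 (SE 0.30) for Des. Adipocyte markers had 3 of 4 tested genes above 0, at 11.4 to 31.8 CPM in knockout and 12.3 to 14.0 CPM in control libraries. Those above were Cfd, Plin4 and Cidea, each with overlapping groups, and Fabp4 was at -0.06 (SE 0.26). Adipoq, Lep and Plin1 had at most 1 count in any library and were not tested, so adipocyte content is not shown by this list. Skeletal muscle markers reached 34.0 CPM in knockout replicate 1 and were at most 1.25 CPM in the other knockout libraries and at most 0.948 CPM in control libraries.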

How the data were processed

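RNA of whole livers was prepared with the TruSeq RNA kit for HiSeq2500 sequencing, as the labels' protocols state. The authors deposited whole-number counts per gene, not normalized, beside exon coordinates and exon length, per the file headers. The submitters' processing notes list featureCounts 1.4.6-p4, Subread 1.4.6-p4, Trimmomatic 0.33 and FastQC, with the builds mm10 and GRCm38, names of 1 assembly. The sources used here do not give the strand setting, annotation release or treatment of reads with several matches, so near-identical and overlapping genes are uncertain. Symbols came from GENCODE M21 for 46488 of 46983 identifiers, and 35 of the 45 enzymes had the same span there. The 37 mitochondrial rows held 0 counts.

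Genes were kept by edgeR's filterByExpr (16441) and compared, 3 knockout against 2 distinct control libraries, by edgeR's two-sided quasi-likelihood F test with TMM scaling. P-values were Benjamini-Hochberg adjusted over all kept genes (threshold 0.05). Standard errors came from the F statistic, and log2 differences between libraries used a prior of 0.5 counts. The tools were edgeR 4.0.16, DESeq2 1.42.0 and limma 3.58.1 in R 4.3.3, with Python 3.11.15. Separate mice are stated as biological replicates by the labels. The enzymes, lists and naming rule were chosen with earlier results of these data known. The rule named, with every library, the 4 most abundant genes per superfamily and kilobase and the 10 with the smallest p. Likewise named were those without overlap at a log2 fold change of at least 0.5, called genes, and the widest control gap per superfamily. Of each list, the 2 genes of smallest p were named. For Ugt2b1, Ugt2b36 and Sult1d1 only a mean, range or fold change is printed. Gstp3, Ugt2b37, Ugt3a1, Ugt3a2 and Sult5a1 are given by library outside this rule. List symbols without a match were left out. Shared sequence was counted as 50-base stretches in GENCODE M21 transcripts. Promoters came from RefSeq for 41 of 45 enzymes.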

Additional observations from a re-analysis of the deposited data

How the results depend on the processing

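No enzyme passed the adjusted threshold under any of the 14 alternatives. Gsta2, Gstt1 and Sult1c2 kept their direction in all, as did Gsta1, Gsta3, Sult1b1, Sult2a7, Sult2a8, Ugt1a1, Ugt1a5, Ugt2b5 and Ugt2b35. All alternatives used the same libraries, so a kept direction is no independent support. Over all genes, the calls (1) were 3 without a low-count filter, 19 by DESeq2, 0 with the replicate number as a block, and 1 to 6 with a library left out. Enzymes higher at an unadjusted p under 0.05 (2) numbered 1 with upper-quartile scaling and 1 with library totals. They numbered 6 on all 6 columns as deposited, where 1 control library counts as 2. With a knockout library left out they numbered 1 to 5, against 0.887% to 2.73% of all genes. Those lower (1) numbered 0 with library totals, by limma-voom and with the block, and 2 without a filter, by DESeq2 and on all 6 columns. With a knockout library left out they numbered 0 to 1, against 1.51% to 2.34% of all genes. For the scalings, the block, the unfiltered fit and the 6 columns, the share of all genes was not taken. The median of all enzymes (0.08) was 0.065 with upper-quartile scaling, 0.11 with library totals, 0.10 by limma-voom, 0.12 on all 6 columns, 0.14 with the block, and 0.091 to 0.20 with a library left out. The Gst median (0.04) was -0.048 on all 6 columns, -0.018 with the block, and -0.041 to 0.24 with a library left out. The Ugt median (0.08) was 0.21 on all 6 columns, and -0.0033 to 0.38 with a library left out. The Sult median (0.20) was 0.18 with upper-quartile scaling, 0.23 with library totals, 0.24 without a filter, 0.19 by DESeq2, 0.34 by limma-voom, 0.28 on all 6 columns, 0.27 with the block, and 0.082 to 0.45 with a library left out. Enzymes without overlap that lay below (2) numbered 1 with DESeq2's size factors and 0 with library totals. With a library left out they numbered 2 to 9, against 14.0% to 25.6% of all genes. Those above (4) numbered 4 to 18 over these settings, and 12.9% to 24.9% of all genes lay above with a library left out.

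Some directions turned. Sult1a1 was at 0.010 by limma-voom and 0.082 with the block, Sult1e1 at -0.43 and Ugt2a3 at 0.14 with the block. With a library left out, the lowest and highest log2 fold changes were -0.37 and 0.24 for Gstm1, -0.86 and 0.083 for Gstp1, -2.42 and 0.62 for Gstp2, -0.015 and 0.078 for Gstz1, -0.24 and 0.26 for Sult1a1, -0.10 and 0.19 for Sult1d1, -0.65 and 1.98 for Sult1e1, -0.26 and 0.15 for Ugt2a3, -0.17 and 0.40 for Ugt2b1, -0.041 and 0.21 for Ugt2b36 and -0.60 and 1.63 for Ugt2b38. The cause was not tested beyond fewer libraries. Same-numbered libraries deviated together with r = 0.025 and 0.14 over genes for replicates 1 and 3, with only 2 pairs, so the block is given only here. It left 1 residual degree of freedom, and Mtdh did not pass in it. Leaving out a control library left a lone sample assumed to vary like the knockouts. Sult1e1 could not be tested on all 6 columns or without knockout replicate 2. The medians of the other 8 supporting lists also ranged with a library left out. They ran from 0.031 to 0.22 (other glutathione transferases), -0.085 to 0.11 (glutathione synthesis) and -0.18 to -0.064 (mercapturate). Further ranges were 0.14 to 0.21 (UDP-glucuronate and cleavage), -0.10 to 0.088 (PAPS) and 0.13 to 0.31 (transporters). The last were 0.016 to 0.13 (regulators) and 0.034 to 0.24 (other conjugation). Depth limits Gsto2, Sult6b1, Ugt1a2 and Sult1e1.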
